A study of Mus musculus with 16 samples.

Results

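The genes described here are 40 genes of general fatty acid metabolism, chosen by name: those for synthesis, elongation and desaturation, activation to acyl-CoA, storage as triglyceride, lipolysis, uptake and oxidation, without the genes typical of sebaceous gland cells. All probes carrying 1 of these symbols in the platform annotation were taken, which gave 56 of the 25697 probes for 37 of the 40 genes. Acacb, Acsl1 and Hadha were not analysed here. After a filter on dim probes, 43 of the 56 probes and 32 of the 40 genes were tested, out of 14504 probes and 10013 genes in all.

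Expression had been measured on 16 single-colour Illumina bead arrays of total RNA from 15-day-old mice of C57/BL6;129Ola mixed strain. The mutant group held 7 arrays of genotype K14-cre; Gab1fl, in which Cre is driven by the keratin 14 promoter of basal keratinocytes so that the docking protein Gab1 is lost from the epidermis and its appendages, and the control group held 9 arrays whose genotype is given as control with no allele named. The labels do not say whether Gab1fl was homozygous, whether controls carried the floxed allele or the transgene, or which sex the mice had. The tissue label is dorsal skin, while the series' design text speaks of sorted cells carrying integrin alpha 6, and markers of dermal fibroblasts and macrophages (7 of 7 genes each) passed the filter on dim probes, as did those of basal keratinocytes (7 of 7).

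Fatty acid synthesis starts from citrate, which is split in the cytosol to acetyl-CoA, carboxylated to malonyl-CoA and joined by fatty acid synthase into palmitate, and elongases and desaturases then shape the chain. Acyl-CoA synthetases activate fatty acids for esterification into triglyceride, which is kept in droplets coated by perilipins, or for transport by carnitine into mitochondria, where beta-oxidation shortens the chain. In skin these pathways feed the sebaceous gland, the barrier lipids of the epidermis and the fat layer of the dermis.

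The 16 arrays repeated 5 sources, since arrays within a source correlated at 0.994 to 0.996 and arrays of different sources at 0.935 to 0.936 in the mutant group and at 0.961 to 0.986 in the control group, against 0.933 to 0.964 between mutant and control arrays. Arrays of a source were averaged, giving 2 mutant sources (3 and 4 arrays) and 3 control sources (3 arrays each), and n below counts sources. No label says that the sources are separate animals, so the p-values set a difference only against the spread between these sources. Between 52.2% and 57.0% of probes were detected per array. Gab1 itself stood at 11.34 and 11.97 in the mutant sources, against 12.69, 12.69 and 12.68 in the control sources, on the normalized log2 scale used throughout. The Y-linked gene Eif2s3y was at 9.14 in mutant source 1 and 4.78 in mutant source 2, against 10.41 to 10.74 in the control sources, and Kdm5d, also Y-linked, at 5.73 and 4.96 in the mutant sources, against 7.02 to 7.13 in the control sources. Xist, expressed from the inactive X, was at 10.43 and 11.49 in the mutant sources, against 9.93 to 10.50 in the control sources. Both mutant sources thus stood below the controls in Y-linked signal, mutant source 2 more so, and main results are also given below without it, which leaves that difference in mutant source 1. The control sources and mutant source 1 held signal of both Eif2s3y and Xist. The part of sex in the differences below was not tested and cannot be told apart from that of genotype.

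Most of the chosen storage, lipolysis and oxidation genes had less signal in each mutant source than in any control source, while the sources of the core synthesis genes Fasn and Acaca overlapped. In a wider list of storage and lipolysis genes only 7 of 26 did. The elongase Elovl6 had 16.3% of its control level, the monoglyceride lipase Mgll 38.1% and the droplet coat protein Plin2 39.8%. Of the 32 tested genes only the desaturase Fads2 was above all control sources in both mutant sources, at 2.16 times the control level. Its control signal was near background. None of these differences passed the test over all probes (limma, Benjamini-Hochberg adjusted p below 0.05): 0 of the 43 probes were called, where 0.0552% of all probes were (8 of 14504) and 0.0499% of all genes (5 of 10013), and the smallest adjusted p was 0.196. An unadjusted p below 0.05 was reached by 15 of the 32 genes, where 12.2% of all genes reached it. In simulated data with 2 and 3 sources, 200 of 14504 probes were changed and each probe was drawn independently. There 9.81% of 2-fold and 59.2% of 4-fold changes were called, with 3.9 false calls per run. Shifts shared by many probes of a source were not simulated, so these shares need not hold for the real data.

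Counted by sources, 17 of the 32 tested genes had both mutant sources below the lowest of the 3 control sources, where 15.3% of all genes did, and 1 had both above the highest, where 14.1% of all genes did. The same shares over all genes apply to the counts by role given below, which rest on few genes each. The members and the lists below were chosen with earlier results of these data known. Setting their counts against the shares over all genes is therefore a description and no test. For 14 of the 17, every mutant array lay below every control array. The share of all genes with arrays apart in this way was not computed. The median log2 difference of the 32 genes was -0.46, against 0.00 over all tested genes. Of the 32 genes 27 were above background on all 16 arrays, and 4 (Fasn, Gpam, Lipe and Elovl7) on fewer than 7 mutant arrays. Less RNA per cell and fewer cells that hold it cannot be told apart in such samples. The plot of all 32 genes by source shows how the 2 groups lie.

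**Figure D1:**
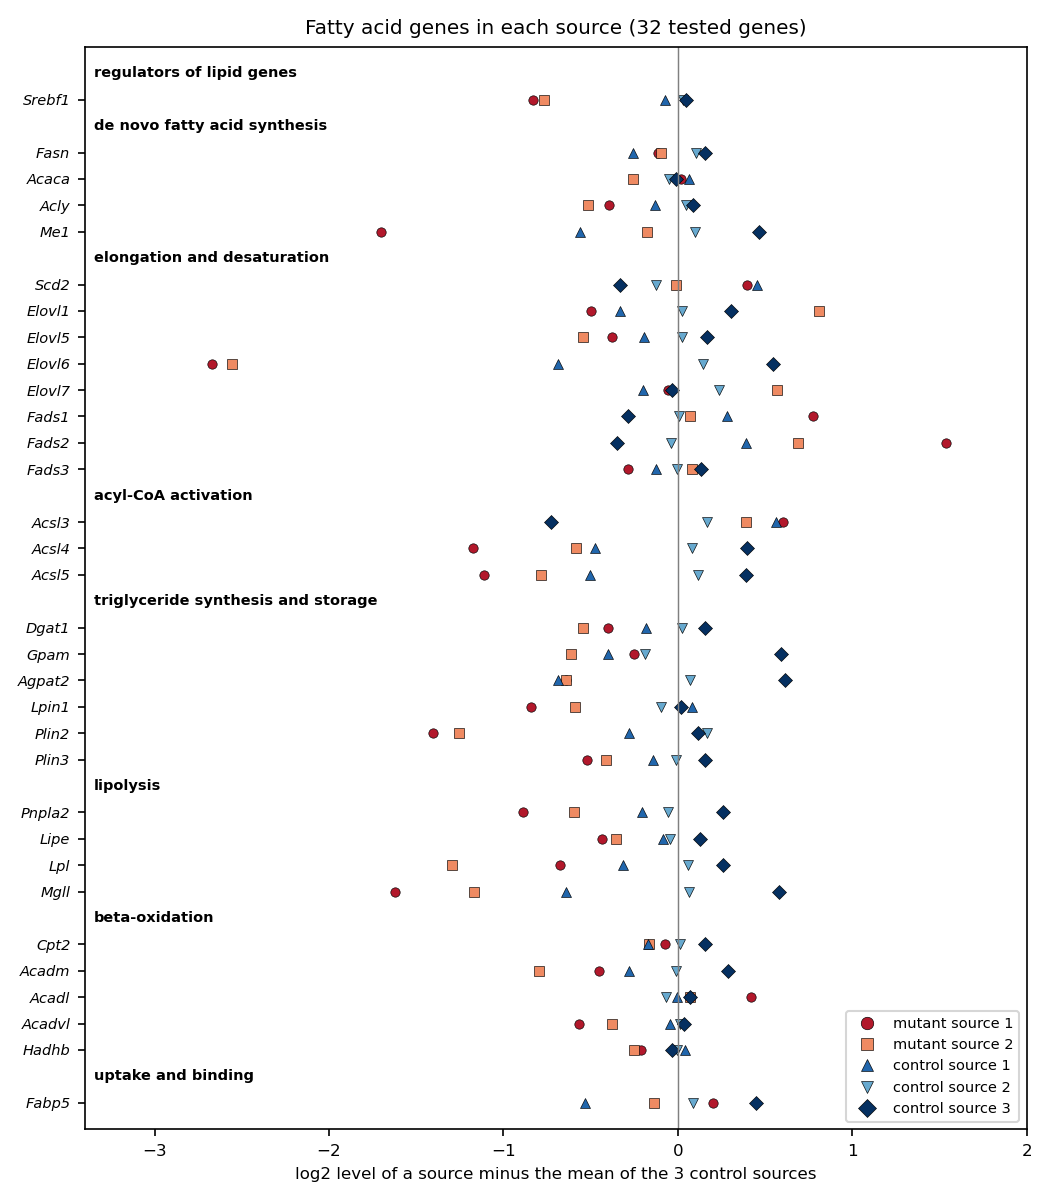
Each row is 1 tested gene, grouped by role, and each symbol is 1 source (mean of 3 or 4 arrays), placed by its log2 level minus the mean of the 3 control sources. The 2 mutant symbols lie left of all 3 control symbols for 17 of 32 genes and right of them for Fads2, and the mutant symbols of Elovl6 lie farthest left, with a mean of -2.61.

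For a view of the regulatory sequence of genes whose sources were apart and of 1 whose sources overlapped, the 250 bases before the RefSeq start (GRCm38.p6) are shown for Elovl6, the gene with the largest difference (chr3:129532136-129532385, plus strand), Plin2 (chr4:86670060-86670309, minus strand), Mgll (chr6:88724162-88724411, plus strand, the first of 2 listed starts), Fasn, whose sources overlapped (chr11:120824548-120824797, minus strand), and Fads2, the gene with both mutant sources above the controls (chr19:10101504-10101753, minus strand). Capitals mark CCAAT boxes (CCAAT), GC boxes (GGGCGG) and E-boxes (CACGTG), each searched on both strands, so that a box may be written as its complement.
Elovl6: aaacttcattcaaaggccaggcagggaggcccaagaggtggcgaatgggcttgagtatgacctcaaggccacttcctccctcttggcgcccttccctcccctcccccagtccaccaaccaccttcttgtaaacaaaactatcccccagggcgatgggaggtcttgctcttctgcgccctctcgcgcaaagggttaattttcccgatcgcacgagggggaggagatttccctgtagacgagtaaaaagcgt
Plin2: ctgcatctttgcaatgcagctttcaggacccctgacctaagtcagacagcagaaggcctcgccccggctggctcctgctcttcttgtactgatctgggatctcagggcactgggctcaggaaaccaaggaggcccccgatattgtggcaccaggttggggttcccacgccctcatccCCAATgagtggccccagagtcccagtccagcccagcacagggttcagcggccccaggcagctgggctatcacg
Mgll: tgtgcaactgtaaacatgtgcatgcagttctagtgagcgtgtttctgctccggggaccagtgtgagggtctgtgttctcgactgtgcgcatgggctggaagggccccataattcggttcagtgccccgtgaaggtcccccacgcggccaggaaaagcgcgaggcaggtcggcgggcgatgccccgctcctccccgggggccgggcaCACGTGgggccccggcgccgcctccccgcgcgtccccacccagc
Fasn: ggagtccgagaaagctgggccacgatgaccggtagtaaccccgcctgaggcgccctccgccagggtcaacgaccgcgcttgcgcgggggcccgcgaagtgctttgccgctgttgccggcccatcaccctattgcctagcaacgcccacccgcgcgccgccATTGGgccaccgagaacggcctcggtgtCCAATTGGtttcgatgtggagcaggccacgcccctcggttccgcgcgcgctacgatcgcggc
Fads2: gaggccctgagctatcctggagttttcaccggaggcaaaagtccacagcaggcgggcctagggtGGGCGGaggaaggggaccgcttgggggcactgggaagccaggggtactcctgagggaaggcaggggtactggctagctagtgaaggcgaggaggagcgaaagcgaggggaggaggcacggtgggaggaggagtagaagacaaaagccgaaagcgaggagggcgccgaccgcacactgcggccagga
Both Plin2, whose sources were apart, and Fasn, whose sources overlapped, hold CCAAT boxes, 2 of those of Fasn overlapping. The Elovl6 window holds none of these letters.

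Promoters were listed for 27 of the 32 tested genes. A CCAAT box occurred in 5 of 15 genes that were lower in both mutant sources and in 6 of 11 whose sources overlapped, against 37.5% of all 27025 genes with a listed promoter. A GC box occurred in 8 of 15 and 9 of 11, against 35.4% of all genes. The E-box was found in 3 of the 15 (Elovl5, Lipe and Mgll) and 0 of the 11, against 6.86% of all genes. A sterol regulatory element was searched as TCACNCCAC alone, 1 form of the sites bound by the protein of Srebf1. It was in 0 of 27, against 1.22% of all genes, a share at which 0 says little. A PPAR response element was in Elovl1 alone, against 0.400% of all genes. These are matches of letters in a short window and say nothing of binding.

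Of the 3 regulators, Srebf1 was the only one above background on enough arrays to be tested. Srebf1 encodes the SREBP transcription factor that drives fatty acid synthesis genes. Its signal was 7.65 and 7.71 in the mutant sources, against 8.41, 8.51 and 8.53 in the control sources. The groups were apart in sources and in arrays, the 7 mutant arrays running from 7.47 to 7.82 (median 7.69) and the 9 control arrays from 8.24 to 8.65 (median 8.49). The difference was -0.80 (SE 0.18, 95% interval -1.24 to -0.36, limma adjusted p = 0.256). Ppara, the nuclear receptor that switches on oxidation genes, was detected on 0 of 7 mutant and 5 of 9 control arrays, which kept it out of the test. Its signal was 5.07 and 4.99 in the mutant sources, against 5.78, 5.69 and 6.24 in the control sources, all close to background. Thrsp, a lipogenic regulator, was detected on 0 mutant and 2 control arrays.

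The genes of de novo synthesis showed 1 clear separation of the sources, in Acly. Acly, the ATP citrate lyase that supplies cytosolic acetyl-CoA, was at 13.69 and 13.57 in the mutant sources, against 13.96, 14.14 and 14.18 in the control sources. That is 72.9% of the control level (difference -0.46, SE 0.12, limma adjusted p = 0.288), with no overlap of arrays. Fasn, fatty acid synthase, stood at 6.05 and 6.06 in the mutant sources, against 5.90, 6.26 and 6.31 in the control sources. The mutant values lay between the control values, the interval of the difference ran from -0.60 to 0.39, and the probe was near background, detected on 6 of 7 mutant and 9 of 9 control arrays. Acaca, the acetyl-CoA carboxylase of the cytosol, was at 11.73 and 11.45 in the mutant sources, against 11.77, 11.66 and 11.70 in the control sources (interval -0.49 to 0.25). Mutant source 1 lay within the control range and mutant source 2 below it. Me1, the malic enzyme that makes NADPH for synthesis, split the mutant sources, at 8.71 and 10.23, against 9.85, 10.51 and 10.87 in the control sources, and its other probe gave the same split (7.92 and 9.47 in the mutant sources, against 9.14 to 10.18 in the control sources).

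Elongases and desaturases went in both directions. Elovl6, the elongase that turns palmitate into stearate, had the largest difference of the 32 genes. It was at 11.92 and 12.04 in the mutant sources, against 13.91, 14.74 and 15.14 in the control sources. The 7 mutant arrays spanned only 11.90 to 12.06 (median 12.01), and the control arrays spanned 13.86 to 15.19 (median 14.76). The difference was -2.61 (SE 0.36, 95% interval -3.51 to -1.72, limma adjusted p = 0.196), with -2.67 within slide 1 and -2.56 within slide 2. Both slides carried arrays of the same 5 sources, so these 2 values are no independent repeat. Elovl5, which elongates polyunsaturated fatty acids, was at 13.17 and 13.00 in the mutant sources, against 13.35, 13.57 and 13.71 in the control sources, 72.7% of the control level.

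Fads2, the desaturase that opens the polyunsaturated pathway, stood on the other side. It was at 7.78 and 6.94 in the mutant sources, against 6.64, 6.21 and 5.90 in the control sources (difference 1.11, SE 0.35, limma adjusted p = 0.335). Its sources were apart but its arrays overlapped, the lowest mutant array at 6.59 and the highest control array at 6.88. The probe was detected on 7 of 7 mutant and 8 of 9 control arrays, with control signal near background. Without background correction the Fads2 difference was 0.54, so its size depended on that step. Fads1, which acts later in that pathway, was at 13.18 and 12.47 in the mutant sources, against 12.68, 12.41 and 12.11 in the control sources, so that only mutant source 1 lay above every control source. Scd2, a stearoyl-CoA desaturase, was at 8.65 and 8.25 in the mutant sources, against 8.71, 8.13 and 7.92 in the control sources, and overlapped. Elovl1, an elongase of very long chains, had 11.70 and 13.01 in the mutant sources, against 11.87 to 12.50 in the control sources, and all 4 of its probes placed mutant source 2 above and mutant source 1 below or within the control range. Fads3 and Elovl7 differed by -0.10 and 0.26 with overlapping sources.

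**Figure D2:**
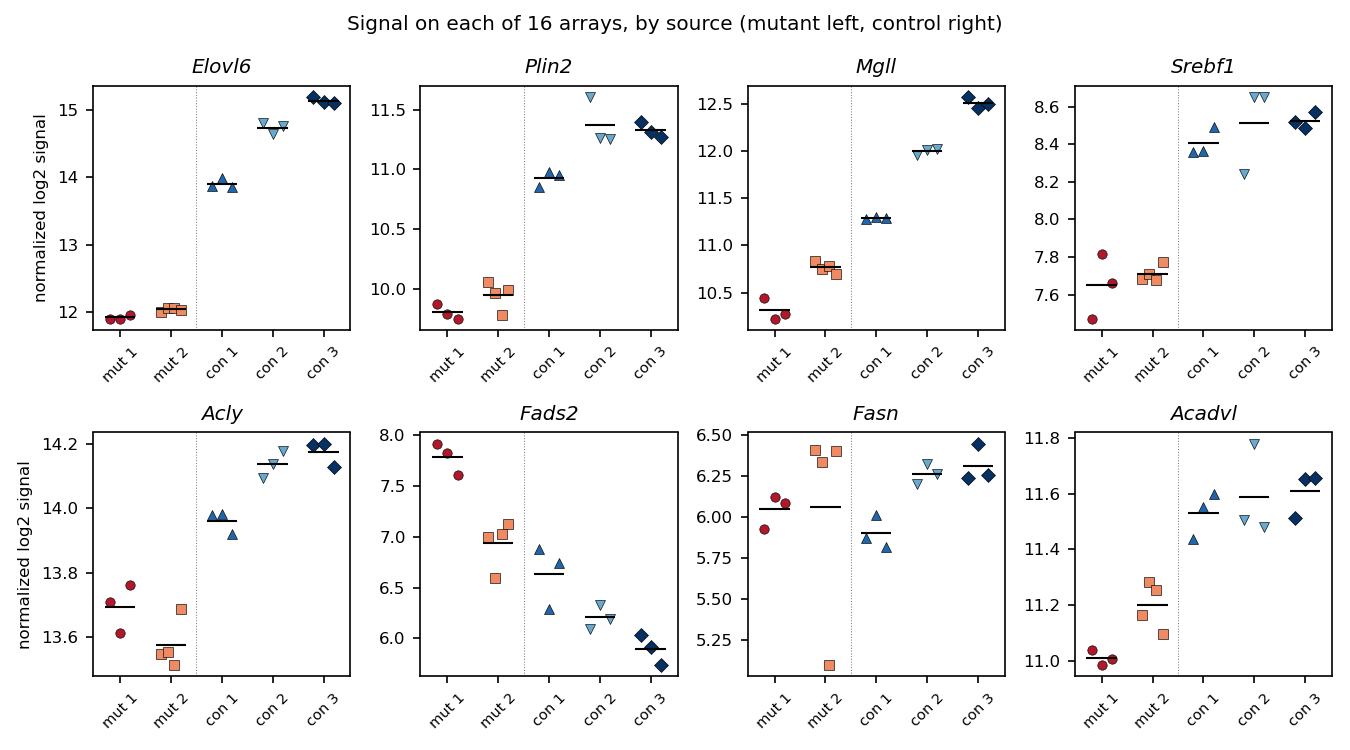
Each panel is 1 gene, each symbol 1 array, and each black line the mean of a source (mut 1 and 2, mutant sources; con 1 to 3, control sources), on the normalized log2 scale, with axes that do not start at 0. Arrays of a source lie close together in most panels, the mutant arrays of Elovl6 stay between 11.90 and 12.06, and 1 array of mutant source 2 stands apart in Fasn at 5.10.

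Of the acyl-CoA synthetases, 2 of the 3 tested were lower in both mutant sources. Acsl5, which serves esterification and oxidation alike, was at 13.21 and 13.53 in the mutant sources, against 13.81, 14.43 and 14.71 in the control sources (51.9% of control, limma adjusted p = 0.322). Acsl4, which prefers arachidonate, was at 7.13 and 7.72 in the mutant sources, against 7.83, 8.39 and 8.70 in the control sources. Its arrays overlapped, and another of its 3 tested probes had overlapping sources at a difference of -0.39. Acsl3, which acts on forming lipid droplets, was at 12.86 and 12.65 in the mutant sources, against 12.82, 12.42 and 11.53 in the control sources. These sources overlapped, with a difference of 0.50 (interval -0.47 to 1.46), control source 3 being lowest.

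All 6 genes of triglyceride synthesis and storage had negative differences (median -0.56), and in 4 of them both mutant sources were below all control sources. Plin2, a coat protein of lipid droplets in most cell types, was at 9.81 and 9.95 in the mutant sources, against 10.93, 11.38 and 11.33 in the control sources. The mutant arrays ran from 9.75 to 10.06 (median 9.87) and the control arrays from 10.85 to 11.61 (median 11.26). The difference was -1.33 (SE 0.20, 95% interval -1.82 to -0.84, limma adjusted p = 0.207), and -1.38 and -1.35 within slides 1 and 2, which carried the same sources. Plin3, another droplet coat protein, was at 9.00 and 9.11 in the mutant sources, against 9.38, 9.51 and 9.68 in the control sources, a smaller gap.

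Lpin1, the phosphatidate phosphatase that makes diacylglycerol, was at 7.50 and 7.75 in the mutant sources, against 8.42, 8.25 and 8.36 in the control sources (60.8% of control, limma adjusted p = 0.301). Dgat1, which adds the last acyl chain, was at 8.11 and 7.96 in the mutant sources, against 8.33, 8.53 and 8.67 in the control sources. The arrays of both genes were apart. Gpam and Agpat2, which add the earlier chains to glycerol phosphate, differed by -0.43 and -0.64 with overlapping sources. For Agpat2 the overlap came from control source 1, at 8.66, against 8.71 in both mutant sources and 9.43 and 9.97 in the other control sources.

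Of the 4 lipolysis genes, the 3 with clear signal were lower in both mutant sources (median difference -0.98), as was 1 of the 2 probes of the fourth, Lipe. Mgll, which cleaves monoglycerides, was at 10.31 and 10.77 in the mutant sources, against 11.29, 12.00 and 12.51 in the control sources. The difference was -1.39 (SE 0.38, limma adjusted p = 0.310), and the other probes gave -1.20 and -1.29, all 3 with arrays apart. Pnpla2, the adipose triglyceride lipase that opens the breakdown of droplets, was at 11.39 and 11.68 in the mutant sources, against 12.07, 12.22 and 12.54 in the control sources (59.9% of control). Lpl, the secreted lipase that releases fatty acids from lipoproteins, was at 12.09 and 11.46 in the mutant sources, against 12.44, 12.81 and 13.02 in the control sources (50.5% of control, limma adjusted p = 0.301). Both had arrays apart. Lipe, the hormone-sensitive lipase, was at 5.84 and 5.92 in the mutant sources, against 6.19, 6.24 and 6.41 in the control sources. It was detected on 2 of 7 mutant and 9 of 9 control arrays, so it entered the test through the controls alone, and its other probe differed by 0.10 with overlapping sources. Without Lipe, 16 of 31 tested fatty acid genes were lower in both mutant sources.

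In the mitochondrial beta-oxidation group 3 of the 5 tested genes were lower in both mutant sources. Acadm, the medium-chain acyl-CoA dehydrogenase, was at 12.82 and 12.47 in the mutant sources, against 12.99, 13.26 and 13.56 in the control sources (difference -0.62, limma adjusted p = 0.351), and its dimmer probe differed by -0.27. Acadvl, the very long-chain dehydrogenase, was at 11.01 and 11.20 in the mutant sources, against 11.53, 11.59 and 11.61 in the control sources (difference -0.47, SE 0.14, limma adjusted p = 0.322). Its arrays were apart. Hadhb, a subunit of the trifunctional protein, was at 11.97 and 11.93 in the mutant sources, against 12.22, 12.18 and 12.14 in the control sources, with overlapping arrays. Cpt2, which hands acyl groups back to coenzyme A inside the mitochondrion, differed by -0.12 (interval -0.57 to 0.32), and Acadl, the long-chain dehydrogenase, by 0.24, both with overlapping sources. Cpt1a, the enzyme that commits fatty acids to oxidation, was above background on 0 of 16 arrays with its single probe and could not be compared.

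Of the 3 uptake and binding genes only Fabp5 had signal. Fabp4 and Cd36, a binding protein and a fatty acid transporter of fat and endothelial cells, were above background on 0 of 16 arrays. Fabp5, the epidermal binding protein, was at 10.25 and 9.90 in the mutant sources, against 9.51, 10.13 and 10.49 in the control sources, and the interval of the difference ran from -0.78 to 0.84. Its mutant values lay inside the control range.

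Setting synthesis against oxidation, the median difference was -0.10 over the 12 tested genes of synthesis, elongation and desaturation, and -0.23 over the 5 of beta-oxidation. Within single sources, the synthesis median minus the oxidation median was 0.01 and 0.20 in the mutant sources, against -0.11, 0.03 and 0.04 in the control sources. Mutant source 1 lay within the control values and mutant source 2 above them, and the gap of 0.13 between the 2 medians was close to the SD between sources of 0.10. With the 4 de novo genes alone as synthesis the gap was -0.06. No separation of synthesis from oxidation beyond the spread between sources was therefore measured, while 8 of the 10 storage and lipolysis members were lower in both mutant sources (median -0.68; 7 of 9 and -0.72 without Lipe). That order of the groups was not tested, and it did not hold in the wider lists described below, where the median was -0.24 for storage and lipolysis (7 of 26 lower), -0.42 for oxidation and -0.31 for synthesis. In single sources the median of these 10 genes was -0.66 and -0.60 in the mutant sources, against -0.24, 0.01 and 0.21 in the control sources.

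**Figure D3:**
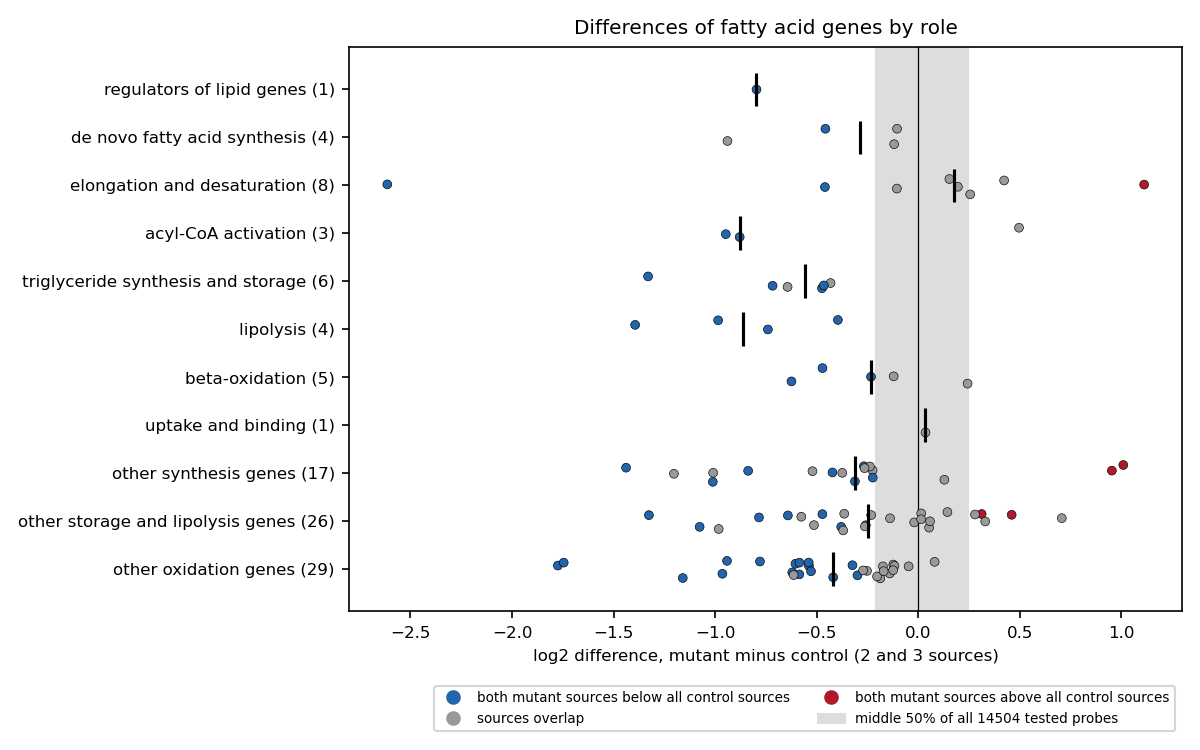
Each point is 1 gene, placed by its log2 difference (mutant minus control, 2 and 3 sources), black bars are group medians, numbers in brackets are tested genes, and the grey band holds the middle 50% of all tested probes. Blue points, lower in both mutant sources, make up 8 of the 10 storage and lipolysis members, 7 of the 26 other storage and lipolysis genes and 16 of the 29 other oxidation genes, while elongation and desaturation genes reach from -2.61 to 1.11. Over all tested genes 15.3% were lower in both mutant sources.

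A wider list of genes of the same pathways gave none past the threshold (limma, 0 of 72 genes, smallest adjusted p = 0.207). Of 29 other oxidation genes, 16 had both mutant sources below the controls and 0 above, against 15.3% and 14.1% of all genes, and 28 had a negative difference (median -0.42). Decr2, a peroxisomal dienoyl-CoA reductase, was at 6.59 and 6.71 in the mutant sources, against 7.61, 7.78 and 8.04 in the control sources. Pdk4, the kinase that turns pyruvate dehydrogenase off when fatty acids are burnt, was at 9.98 and 10.84 in the mutant sources, against 11.76, 12.35 and 12.44 in the control sources. Hsd17b4, a multifunctional enzyme of peroxisomal oxidation, was at 12.74 and 12.31 in the mutant sources, against 13.21, 13.48 and 13.70 in the control sources. These 3, like the genes given by source in the other wider lists, were picked by smallest p among genes whose sources did not overlap. Their separation is therefore no separate result, and 13 of the 29 genes had overlapping sources.

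Of 17 other synthesis genes, 7 had both mutant sources below the controls and 2 above (median -0.31), against 15.3% and 14.1% of all genes. Olah, 1 of the 7, was near background, detected on 1 mutant and 6 control arrays. Nr1h3, the liver X receptor alpha, was at 8.60 and 7.28 in the mutant sources, against 9.62, 9.22 and 9.30 in the control sources. Hsd17b12, the ketoacyl reductase of the elongation cycle, was at 11.78 and 12.21 in the mutant sources, against 12.43, 12.96 and 13.11 in the control sources. Hacd1, a dehydratase of the same cycle, was at 11.51 and 11.55 in the mutant sources, against 10.67, 10.62 and 10.44 in the control sources. The other dehydratases differed by -0.42 (Hacd3, sources apart) and -0.52 (Hacd2, sources overlapping), so the Hacd genes did not go 1 way. Of 26 other storage and lipolysis genes, 7 were lower and 2 higher (median -0.24), which is 26.9% and 7.69%, against 15.3% and 14.1% of all genes. Slc27a1, of the fatty acid transport protein family, was at 9.19 and 8.91 in the mutant sources, against 9.73, 9.84 and 9.94 in the control sources. Slc27a3 of that family was at 10.20 and 10.14 in the mutant sources, against 10.94, 10.78 and 10.71 in the control sources. Dbi, the acyl-CoA binding protein, was at 15.28 and 15.20 in the mutant sources, against 14.81, 14.75 and 14.77 in the control sources. Unlike most of the genes above it was higher in the mutant.

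Markers of several cell types were also lower in the mutant sources, where 15.3% of all genes were lower in both. Of the sebocyte markers 5 of 6 tested were lower in both mutant sources, with a summed signal of 18293 and 27298 in the mutant sources, against 35991 to 68534 in the control sources, and Scd3 and Far2 were detected on no array. Of the 5 lower markers, Mc5r and Awat2 were detected on 3 and Elovl3 on 4 of 7 mutant arrays, and all 3 on 9 control arrays. These 3 entered the test through the controls alone, while Scd1 and Cidea were detected on all 7 mutant arrays. Of the adipocyte markers 2 of 3 tested were lower, with a summed signal of 188 and 214 in the mutant sources, against 284 to 712 in the control sources. Plin1, Retn and Slc7a10 of that list were detected on no array, Adipoq on 4 mutant and 5 control arrays, Cidec, 1 of the 2 lower genes, on 0 mutant and 7 control arrays, so that it entered the test through the controls alone, and Adig on all 16 arrays. Endothelial markers were lower for 6 of 8 (summed signal 25244 and 22557 in the mutant sources, against 34267 to 64627 in the control sources) and T cell markers for 5 of 6 (1204 and 359 in the mutant sources, against 2003 to 6706 in the control sources). Of the 5 lower T cell markers only Cd3g was detected on all 7 mutant arrays. Cd3e was detected on 3, Cd3d and Nkg7 on 4 and Ctsw on 6 of them, against 9 control arrays each, so that these entered the test through the controls alone.

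Among the other lists, 0 of 7 macrophage, 0 of 4 skeletal muscle, 2 of 7 dermal fibroblast, 0 of 7 basal and 0 of 5 suprabasal keratinocyte markers were lower in both mutant sources, against 15.3% of all genes. The summed macrophage signal was 28153 and 7049 in the mutant sources, against 4488 to 23364 in the control sources, and the summed fibroblast signal 48258 and 28855 in the mutant sources, against 37605 to 39307 in the control sources. The summed muscle signal was 442 and 310 in the mutant sources, against 437 to 453 in the control sources. Basal keratinocyte markers summed to 172018 and 195297 in the mutant sources, against 180570 to 197177 in the control sources, and suprabasal markers to 40321 and 95709 in the mutant sources, against 52637 to 80776 in the control sources. In these sums the mutant sources stood on opposite sides of the control range for fibroblast and suprabasal markers, while the median log2 level of the fibroblast markers was below the controls in both. The muscle markers Ckm, Myh4, Myh1, Tnnt3 and Ttn and the suprabasal marker Dsg1a were detected on no array. The part of any of these cell types in the differences of fatty acid genes was not tested.

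The control sources differed among themselves as well. Control source 1 was the lowest of the 3 in 24 of the 32 fatty acid genes and control source 3 the highest in 23. The shares over all genes were not computed for these counts. Relative to the control mean, the median of the 32 genes was -0.19 in control source 1 and 0.15 in control source 3. Over all tested genes these medians were 0.02 and -0.01. Control source 1 also had the smallest summed sebocyte, adipocyte and endothelial signal. For Elovl6 and Mgll control source 1 lay 1.23 and 1.22 below control source 3. Without control source 1 the number of fatty acid genes lower in both mutant sources was 22, without control source 3 it was 17, and without mutant source 2 it was 20. With fewer sources such a separation is easier to reach for any gene. The share over all genes was not computed for these settings, so a higher count is no stronger result. Without mutant source 2 the difference was -2.67 for Elovl6, -1.40 for Plin2, -1.62 for Mgll, -0.83 for Srebf1 and 1.54 for Fads2.

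**Figure D4:**
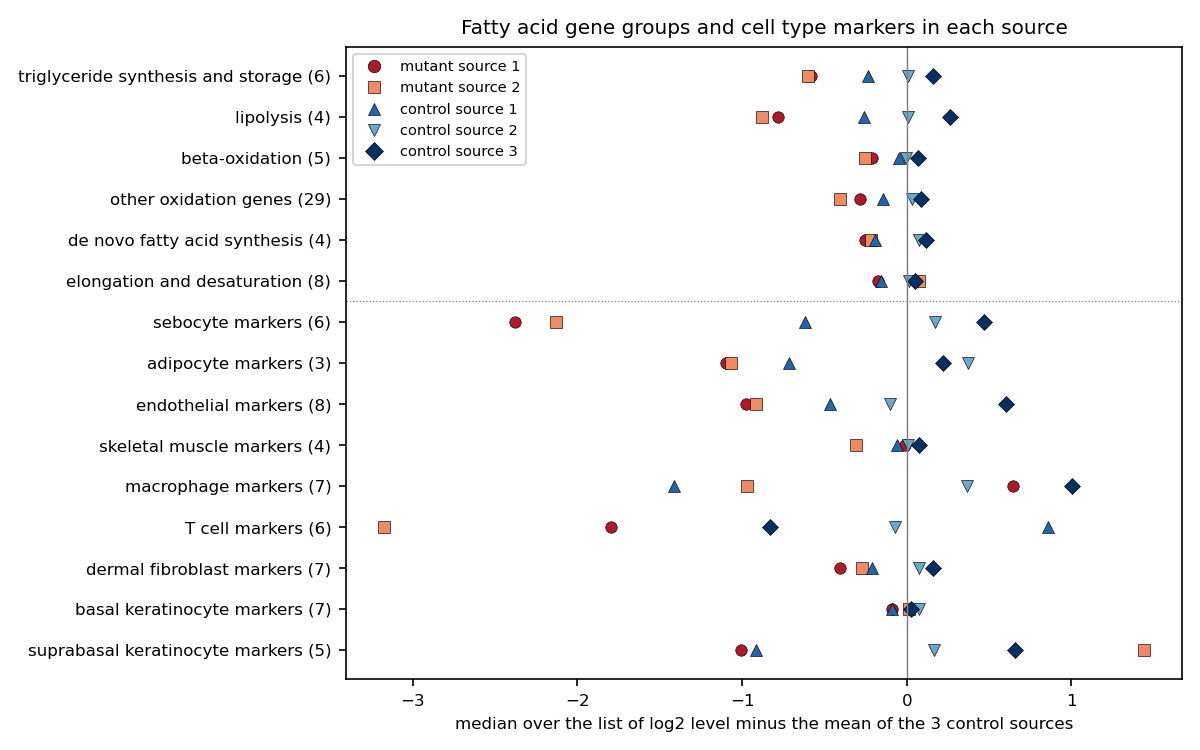
Rows are gene lists (tested genes in brackets), fatty acid groups above the dotted line and cell type markers below it, and each symbol is 1 source, placed by the list's median log2 level minus the mean of the 3 control sources. Both mutant sources lie left of all control sources for the storage and lipolysis members, both oxidation lists, and sebocyte, adipocyte, endothelial and T cell markers. By a narrow margin they do so also for de novo synthesis genes and fibroblast markers, while the basal keratinocyte markers of the mutant sources stay within 0.09 of the control mean. The wider storage and lipolysis list, not drawn, had mutant source 2 at 0.015, within the control values of -0.13 to 0.14. The wider synthesis list, also not drawn, had the mutant sources at -0.24 and -0.40, below the lowest control source at -0.13.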

How the data were processed

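The authors deposited a table of non-normalized average bead intensity with a detection p-value per probe and array, and a table of normalized intensity; GenomeStudio is named in the submitters' processing notes, with no version. On the files themselves, the deposited normalized intensity equalled quantile-normalized raw intensity to a median difference of 0.00648%. The raw intensity was taken through limma 3.58.1 (R 4.3.3): normexp background correction from detection p-values, an offset of 16, quantile normalization and log2 (neqc). A probe was tested if 7 or more of the 16 arrays gave it a detection p below 0.05. Arrays of a group that correlated above 0.99 were averaged as 1 source, and 2 mutant were compared with 3 control sources (lmFit, eBayes with a trend, Benjamini-Hochberg over 14504 probes). A gene is represented by its brightest tested probe. Of 25697 probes, 23978 had 1 gene symbol and 1719 none in the platform annotation. Levels of different probes were not compared.

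Members and gene lists were chosen with earlier results of these data known. Per-source values are given for members whose sources did not overlap, for set key enzymes above background on any array, and for the 3 smallest-p genes of each pathway list whose sources did not overlap. The procedure was tested on simulated data with 200 changed probes in 20 runs. Promoters are from RefSeq. Alternatives covered background, normalization, filter, slide, array handling and leaving out arrays or sources.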

Additional observations from a re-analysis of the deposited data

Results flagged for a closer look

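Among 64 checks of 1 gene in 1 group for a single array far from the others, 1 stood out. The nominal rate of the check, 1 in 20, assumes independent arrays. Arrays that share a source are not independent, so that rate does not apply here. Fasn was at 5.10 on mutant array 6, of mutant source 2, and the nearest mutant array was at 5.93, a gap of 0.634 of the group's range. Without that array the Fasn difference was 0.06 in place of -0.10, both within the spread between sources.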

How the results depend on the processing

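The 18 fatty acid genes with separated sources kept their direction in all 664 values over 37 alternative settings. As these genes were picked by that separation, leaving out a source could not turn their sign, so the count is no test of their direction. Elovl6 ranged from -2.96 to -2.34, Plin2 from -1.47 to -1.23, Mgll from -1.71 to -1.11, Srebf1 from -0.86 to -0.55, Acadvl from -0.57 to -0.38 and Fads2 from 0.54 to 1.54. Genes lower in both mutant sources numbered 16 to 22, with 16 also without Lipe, an alternative chosen after seeing the data. The counts without a source rest on fewer sources, where separation is easier for any gene, and have no share over all genes beside them.

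What passed the threshold depended on the unit counted as a replicate. Against 8 probes called over all, none was called with no background correction, an offset of 50, scaling to the 75th percentile, the deposited normalized table, detection on all 16 arrays, or either slide alone (0 each), 1 with cyclic loess and 4 with no filter. Taking source-by-slide means with the slide as a block gave 2214 calls (19 fatty acid probes, against 0), treating the 16 arrays as separate 4914 (24), the source as a random block 883 (11), and slide as fixed with source as random block, chosen after seeing the data, 820 (10). The title numbers as a replicate block gave 3395 calls (20 fatty acid probes); these numbers did not pair samples, with correlations of -0.386 to 0.418 over 7 pairs and 2 of 7 samples correlating best with their own number. Leaving out 1 array gave 0 to 8 calls, with 0 without control array 2, 4 or 6, and leaving out any source gave 0.

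The number of fatty acid genes higher in both mutant sources was 1, but 0 with detection on all 16 arrays, 2 within slide 1 and 2 within slide 2, 1 to 2 without 1 array and 1 to 4 without 1 source. Here too the counts without a source rest on fewer sources, and no share over all genes was computed. The synthesis minus oxidation median of 0.13 was 0.25 within slide 2 and -0.055 with de novo genes alone, 0.10 to 0.19 without 1 array, and 0.013 to 0.22 without 1 source, the lowest without mutant source 2. Of the single genes only ones with overlapping sources turned sign, since leaving out a source could not turn the sign of the others. Within slide 1 Fasn was 0.074, and within slide 2 Fads3 was 0.033 and Fabp5 -0.061. Fasn was 0.056 without mutant array 6. Leaving out 1 source, Acaca ranged from -0.25 (without mutant source 1) to 0.018 (without mutant source 2), Scd2 from -0.0086 (without mutant source 1) to 0.42 (without control source 1), Elovl1 from -0.50 (without mutant source 2) to 0.81 (without mutant source 1), with -0.01 without control source 1, Elovl7 from -0.058 (without mutant source 2) to 0.57 (without mutant source 1), Fads3 from -0.29 (without mutant source 2) to 0.0785 (without mutant source 1), and Fabp5 from -0.23 (without control source 1) to 0.26 (without control source 3), with -0.14 without mutant source 1. The cause of these changes was not tested.

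With 2 against 3 sources the number of sources limits the precision, and probes near background, such as Lipe, Ppara and Fasn, hold little signal. The same holds for Fads2 in the control sources.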
